A study of Homo sapiens with 72 samples.

Results

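The 8 E2F transcription factor genes (E2F1 to E2F8), RB1 and TFDP1 were followed by population RNA-seq in U2OS, an established human osteosarcoma cell line. These 10 genes, of 60371 listed in each file, were selected on a cell cycle theme and on the values of 1 comparison, in which E2F2 was lower with 10000 nM nilotinib than with DMSO. That comparison is therefore given as a description, with no test. Its DMSO wells also serve in every other comparison with DMSO. The data came from 72 wells of 24-well plates: 18 wells received DMSO, the solvent control, and 3 wells received each of 6 compounds at each of 100 nM, 1000 nM and 10000 nM for 12 h. The compounds were triptolide, an inhibitor of RNA polymerase II transcription that binds the TFIIH subunit ERCC3, homoharringtonine, an inhibitor of ribosomal translation, MK-2206, an inhibitor of AKT kinases, pyrazolanthrone, an inhibitor of JNK kinases, miglitol, an inhibitor of intestinal glucosidases, and nilotinib, an inhibitor of ABL kinases. All wells held the same unmodified line, so no gene was deleted or added in any group.

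RB1 encodes the retinoblastoma protein, which binds E2F factors in G1 and keeps their target genes silent. When cyclin-dependent kinases phosphorylate RB1, the freed activator E2Fs (E2F1, E2F2 and E2F3), paired with the dimerization partner encoded by TFDP1, switch on genes for DNA replication and entry into S phase. E2F4 and E2F5 mostly repress together with RB1 and its relatives, E2F6 represses without binding those proteins, and the atypical members E2F7 and E2F8 repress without a DP partner and act back on E2F1.

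The promoters of the activators are shown because E2F genes are themselves known to be regulated by E2F factors. RefSeq start sites on GRCh38.p14 were matched for 8 of the 10 genes, not for E2F5 and E2F8, and the RB1 entry was set aside because it lay 172706 bases from the GENCODE start of that gene. For those shown, the 250 bases before the start are printed 5′ to 3′ on the strand of the gene. Capitals mark matches, on either strand, to TTTCGCG or to the words TTTCCCGC, TTTCGCGC, TTTGCCGC and TTTGGCGC, which are common forms of the E2F site and were picked with these sequences in view. Of 35116 promoter windows of this length, 3.40% held at least 1 of these words, 2.79% held 1 of the 4 longer words and 1.10% held TTTCGCG. The windows lay at chr20:33686386-33686635 (minus strand) for E2F1, chr1:23531234-23531483 (minus strand) for E2F2, chr6:20401629-20401878 (plus strand) for E2F3 and chr16:67191905-67192154 (plus strand) for E2F4, which is shown as a window with no match. Each window ends at the base before the annotated start of the gene.
E2F1: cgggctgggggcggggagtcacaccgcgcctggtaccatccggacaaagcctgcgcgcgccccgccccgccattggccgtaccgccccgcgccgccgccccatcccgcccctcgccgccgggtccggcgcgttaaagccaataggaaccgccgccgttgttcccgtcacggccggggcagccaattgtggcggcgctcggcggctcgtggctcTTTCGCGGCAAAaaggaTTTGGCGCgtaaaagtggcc
E2F2: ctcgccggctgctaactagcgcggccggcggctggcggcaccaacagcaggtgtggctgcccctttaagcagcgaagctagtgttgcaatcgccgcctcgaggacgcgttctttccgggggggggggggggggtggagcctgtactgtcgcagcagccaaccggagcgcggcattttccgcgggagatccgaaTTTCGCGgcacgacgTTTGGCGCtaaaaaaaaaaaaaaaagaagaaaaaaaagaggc
E2F3: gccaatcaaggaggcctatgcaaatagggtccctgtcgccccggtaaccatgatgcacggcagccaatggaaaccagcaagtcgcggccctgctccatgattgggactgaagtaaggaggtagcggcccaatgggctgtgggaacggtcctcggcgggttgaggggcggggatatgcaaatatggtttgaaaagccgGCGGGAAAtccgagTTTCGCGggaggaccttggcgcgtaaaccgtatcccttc
E2F4: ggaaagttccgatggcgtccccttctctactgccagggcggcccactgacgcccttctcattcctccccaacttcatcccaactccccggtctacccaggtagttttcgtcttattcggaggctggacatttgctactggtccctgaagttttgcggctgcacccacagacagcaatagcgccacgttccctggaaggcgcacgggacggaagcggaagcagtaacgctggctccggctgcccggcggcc
The E2F1 window held 3 matches, between 13 and 37 bases before the start, and 2 of them overlapped. The E2F2 window held 2 matches, between 35 and 57 bases before the start, and the E2F3 window 2, between 33 and 53 bases before it. Another E2F3 entry, 1735 bases from the GENCODE start, had a window with no match, which is not shown. The TFDP1 window held 2 overlapping matches, and the windows of E2F6 and E2F7 held none. These are matches of letters, not measured binding.

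Depth ranged from 70767 to 68.3 mil expected counts per well, with a median of 38.4 mil. The total was under 10 mil in 3 of the 72 wells: the 100 nM triptolide replicate 2 held 70767 (where 3 counts are 36.1 CPM), DMSO replicate 10 held 0.460 mil and the 1000 nM triptolide replicate 1 held 9.63 mil. In that first well 1 count is 12.0 CPM, so that E2F2, E2F3 and E2F4 rest on 2, 1 and 3 counts there. All fits were repeated without these 3 wells. At 100 nM triptolide the log2 fold changes were then 0.68 for E2F1, -1.56 for E2F2, 0.44 for E2F3, -1.98 for E2F4, 0.87 for E2F5, -3.23 for E2F6, -1.83 for E2F8 and 1.17 for TFDP1, all called as with them (edgeR, adjusted p between 1.98e-10 and 0.0195). In all comparisons 5 member calls changed: E2F7 became called at 100 nM triptolide (-0.37) and 10000 nM homoharringtonine (-0.26), E2F2 (-0.52) and E2F5 (0.65) at 10000 nM pyrazolanthrone, and E2F4 at 1000 nM triptolide (0.23) lost its call. The labels do not say whether the wells of a group came from separate cultures, so p-values measure the spread between wells. The cell type label was checked in DMSO wells: VIM (median 1868 TPM), COL1A1 (452.3) and SPARC (2137) were high and RUNX2 (3.81) was low, while COL1A2, SP7 and IBSP were at or near 0. Of the markers of other cell types, KRT18 had a median of 357.7 TPM and EPCAM 2.38, and PTPRC, CD3E, PECAM1, CDH5, ALB, DES and MYOD1 each had a median under 1.

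All 10 genes were expressed in untreated cells. On the TPM scale, which corrects for transcript length, TFDP1 had the highest level in DMSO wells (207.1 ± 24.3, SD, n = 18), followed by E2F4 (80.0 ± 8.42) and E2F1 (49.2 ± 7.72). In each of the 18 wells TFDP1 lay above E2F4, E2F4 above E2F1 and E2F1 above E2F6, and the ranges did not overlap. E2F6 (22.3 ± 5.62) and E2F2 (20.3 ± 4.26) overlapped, with E2F6 higher in 11 of 18 wells. E2F7 (14.6 ± 1.74), RB1 (13.02 ± 4.69) and E2F3 (12.7 ± 1.62) overlapped as well, and RB1 was above E2F3 in 9 of 18 wells. E2F8 (7.87 ± 6.23) and E2F5 (2.43 ± 2.45) were lowest. The highest values of both, 32.65 and 11.75 TPM, came from DMSO replicate 10, and without that well their means were 6.41 and 1.88 TPM. Of the summed TPM of the 8 E2F genes, E2F4 made up 38.2% and E2F1 23.5%. At 10000 nM triptolide E2F1 made up 52.8% of that sum, with 69.7 TPM beside 57.5 for E2F4. With 10000 nM homoharringtonine E2F4 (92.6 TPM) stood above TFDP1 (85.3), the reverse of their order in DMSO wells.

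**Figure D1:**
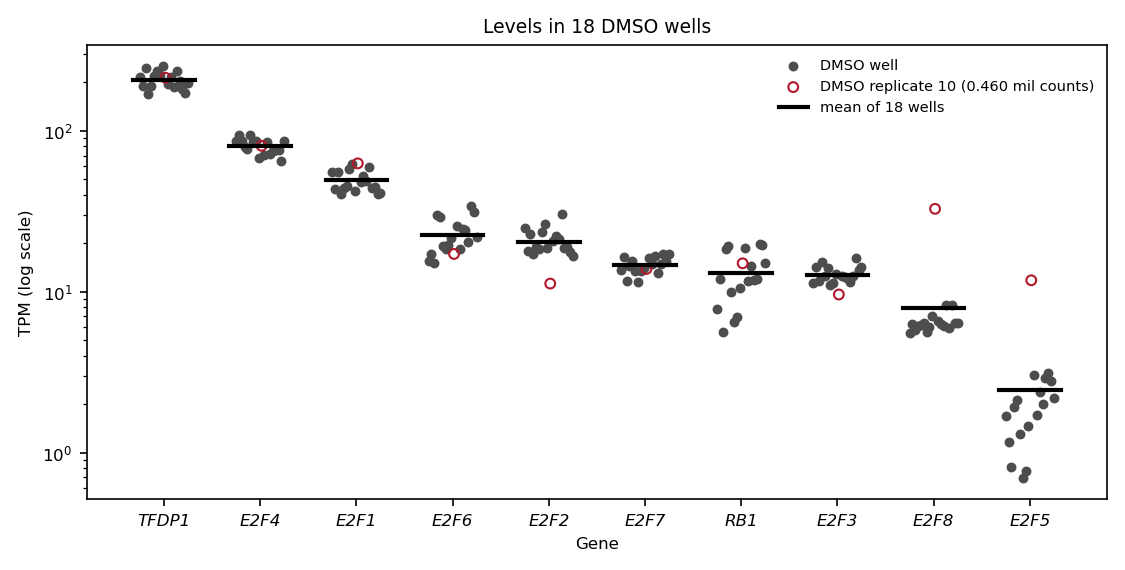
TPM (log scale) of the 10 genes in the 18 DMSO wells, 1 point per well, with a bar at the mean and DMSO replicate 10 as an open red circle. TFDP1, E2F4 and E2F1 stand apart at 207.1, 80.0 and 49.2 TPM, and the open circle is far above the other wells for E2F8 and E2F5 only.

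Each compound and dose was then compared with the 18 DMSO wells, the control of the study, with edgeR's quasi-likelihood test on expected counts after TMM normalization. A gene was called at an adjusted p-value under 0.05 over all genes tested. All 10 genes passed the filter on low counts in every comparison. With triptolide, 8 of the 10 were called at 100 nM, 10 at 1000 nM and 10 at 10000 nM, where 56.8%, 67.4% and 71.8% of all genes tested were called. With homoharringtonine the numbers were 6, 7 and 5, beside 63.4%, 68.4% and 74% of all genes. A count of calls near such a background is no result about these genes, and their directions and sizes are described instead. For the other compounds the background was small. MK-2206 gave calls of 0, 0 and 2 of the 10 genes beside 0.0648%, 1.52% and 3.15% of all genes, pyrazolanthrone 3, 0 and 1 beside 4.77%, 0% and 7.65%, and miglitol 0 at each dose beside 0%, 0% and 0%. Nilotinib gave 3 calls at 100 nM and 3 at 1000 nM beside 9.08% and 3.95%. The 5 members that passed at 10000 nM, where 14.4% of all genes were called, belong to the comparison that chose the genes, and nothing is read from that count.

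**Figure D2:**
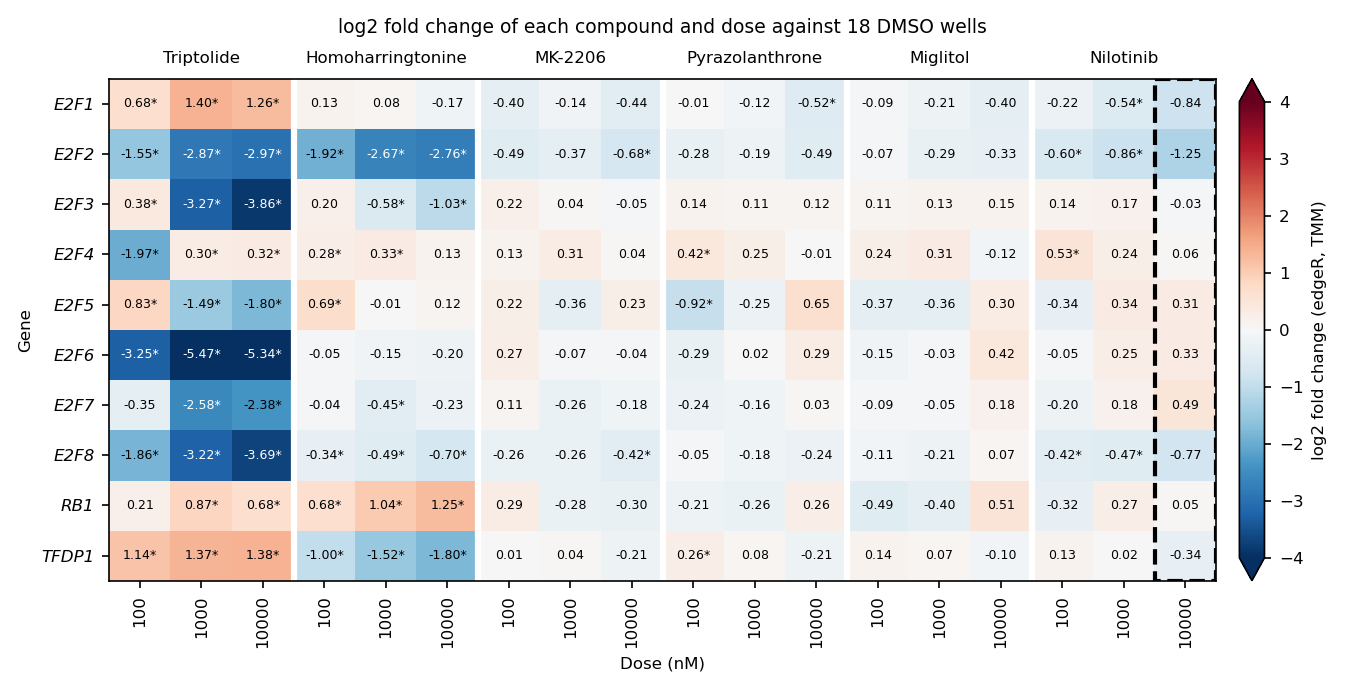
Log2 fold change of the 10 genes (rows) for each compound and dose in nM (columns) against 18 DMSO wells, with * where edgeR's adjusted p-value was under 0.05; the dashed column is the comparison used for the choice of the genes and carries no test. With triptolide E2F2, E2F6 and E2F8 are blue at each dose and E2F1 and TFDP1 red, and that red turns to lower values under scaling to mitochondrial mRNAs. With homoharringtonine E2F2 and TFDP1 are blue at each dose and RB1 is red.

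TMM sets the bulk of the transcriptome to no change, and in bulk wells fewer cells and less RNA per cell cannot be told apart. With triptolide this choice matters: scaled to the 13 mitochondrially encoded mRNAs, the median over all genes of the log2 fold change moved by -1.66, -2.47 and -2.76 at the 3 doses, and with library size alone by -0.34, -0.46 and -0.53. For homoharringtonine the largest of these shifts was -0.27, and for the remaining compounds the mitochondrial scaling moved the median by between -0.70 and 0.45. A rise with triptolide is therefore given as a rise relative to other mRNAs. Another scaling moves all genes of a comparison by nearly the same amount. A gene's place beside the shifted median is thus set by the TMM fit and is no further support.

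E2F1, the best known activator, was higher relative to other mRNAs with triptolide. DMSO wells held between 62.5 and 97.6 CPM (median 75.7). The triptolide wells held 126, 133 and 119 CPM at 100 nM, 218, 221 and 180 at 1000 nM, and 182, 197 and 197 at 10000 nM. All 9 triptolide wells lay above every DMSO well, by log2 fold changes of 0.68 ± 0.15 (SE), 1.40 ± 0.13 and 1.26 ± 0.12 (edgeR, adjusted p = 0.000387, 4.42e-10 and 1.27e-09), but scaled to mitochondrial mRNAs E2F1 was lower than in DMSO, at -0.93, -1.07 and -1.56. The call at 100 nM was also lost with library size alone (0.37) and with genes of at least 10 counts in every well only (-0.0048). With homoharringtonine the wells held 75.6, 80.1 and 97.1 CPM at 100 nM, 104, 78.5 and 65.8 at 1000 nM, and 75.5, 71.6 and 65.4 at 10000 nM. They overlapped the DMSO wells at each dose, and no dose was called.

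E2F2, another activator, had lower mRNA with both compounds at each dose. Its DMSO wells ranged from 28.0 to 88.2 CPM (median 66.0), and the lowest of them was replicate 10, without which the range began at 54.6. With triptolide the wells held 25.3, 24.1 and 21.5 CPM at 100 nM, 9.91, 10.5 and 8.35 at 1000 nM, and 8.97, 8.10 and 10.2 at 10000 nM. With homoharringtonine they held 15.96, 18.4 and 19.8, then 14.3, 9.81 and 8.39, then 11.6, 9.76 and 9.81. All 18 of these wells lay below every DMSO well. Mean CPM at 10000 nM was 13.4% of the DMSO mean with triptolide and 15.3% with homoharringtonine. The log2 fold changes were -1.55 ± 0.23, -2.87 ± 0.23 and -2.97 ± 0.22 with triptolide and -1.92 ± 0.21, -2.67 ± 0.24 and -2.76 ± 0.21 with homoharringtonine, and the largest of the 6 adjusted p-values was 4.51e-06 (edgeR).

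E2F3, the remaining activator, separated the compounds by size and dose. DMSO wells held between 24.5 and 45.0 CPM (median 38.6). At 100 nM triptolide 2 wells held 50.1 and 52.1 CPM, above every DMSO well, and the shallow replicate 2 held 12.0, below every one, from 1 expected count. The call at this dose (log2 fold change 0.38 ± 0.13, edgeR, adjusted p = 0.0194) was lost without replicate 1 (0.38, adjusted p = 0.0982) or without replicate 3 (0.32, 0.155), and E2F3 was at -1.31 under scaling to mitochondrial mRNAs. At 1000 nM the wells held 3.35, 3.49 and 4.69 CPM and at 10000 nM 2.85, 2.61 and 2.57, 10.3% and 7.16% of the DMSO mean. The log2 fold changes were -3.27 ± 0.15 and -3.86 ± 0.14 (edgeR, adjusted p = 2.46e-15 and 1.79e-17). With homoharringtonine the wells held 45.8, 41.9 and 41.8 CPM, then 23.0, 25.3 and 27.9, then 18.3, 18.3 and 20.1, so that the group lay among the upper DMSO wells at 100 nM and below all of them at 10000 nM. Without DMSO replicate 10, the lowest of these wells, the 3 wells at 1000 nM also lay below every DMSO well (30.3 CPM or more). Its log2 fold change was -0.58 ± 0.11 at 1000 nM and -1.03 ± 0.11 at 10000 nM (edgeR, adjusted p = 7.21e-05 and 1.55e-08).

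**Figure D3:**
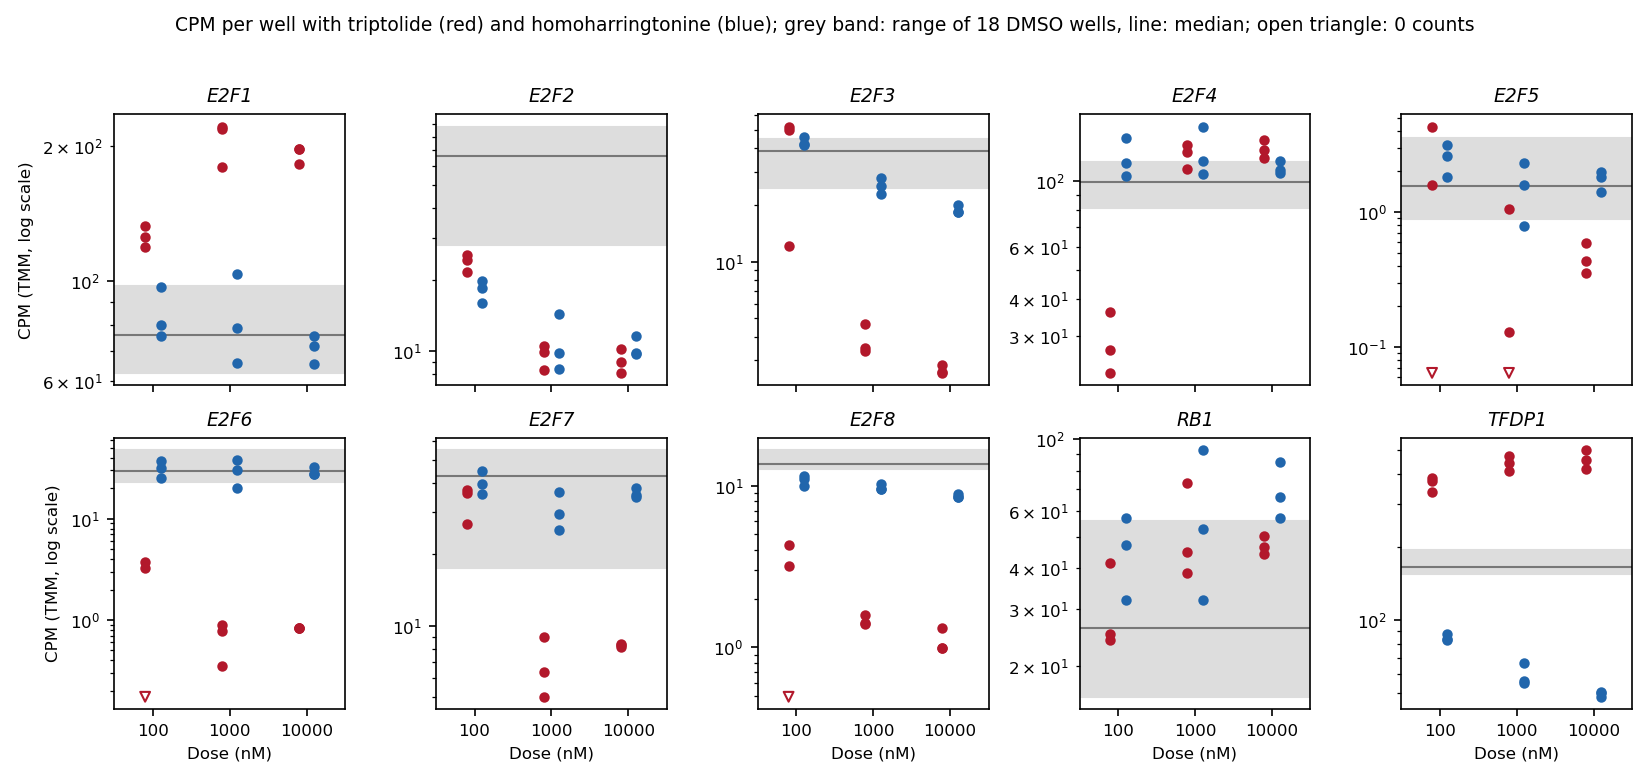
CPM (log scale) of the 10 genes in each well of triptolide (red) and homoharringtonine (blue) by dose in nM, with the range of the 18 DMSO wells as a grey band, their median as a line and wells with 0 counts as open triangles. Red points of E2F6 and E2F8 lie far below the band at each dose, red E2F4 points lie below it at 100 nM only, and TFDP1 points lie above it with triptolide, a position that turns under scaling to mitochondrial mRNAs, and below it with homoharringtonine.

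E2F4, the most abundant repressor E2F, was low at 100 nM triptolide and not at the higher doses. DMSO wells held between 81.1 and 116.3 CPM (median 99.0). At 100 nM triptolide the wells held 26.9, 36.1 and 22.5 CPM, all below the DMSO wells, a fall of 1.97 ± 0.15 on the log2 scale (edgeR, adjusted p = 1.71e-10). At 1000 nM they held 132, 126 and 110 CPM and at 10000 nM 120, 127 and 137, of which 2 and 3 lay above every DMSO well. The log2 fold changes there, 0.30 ± 0.11 and 0.32 ± 0.10 (edgeR, adjusted p = 0.0158 and 0.00634), turned to -0.15 and -0.22 with library size alone and to -2.16 and -2.48 under scaling to mitochondrial mRNAs. The calls were also lost without replicate 1 (0.24) or 2 (0.28) at 1000 nM and without replicate 3 (0.27) at 10000 nM. With homoharringtonine E2F4 wells held 104, 115 and 140 CPM at 100 nM, 153, 117 and 106 at 1000 nM, and 117, 109 and 107 at 10000 nM. They were called at 100 nM and 1000 nM (0.28 ± 0.11 and 0.33 ± 0.12, edgeR, adjusted p = 0.0332 and 0.0150), but the call was lost at 100 nM without replicate 2 (0.31) or 3 (0.14) and at 1000 nM without replicate 1 (0.15). Both were also lost with library size only (0.047 and 0.19, adjusted p = 0.717 and 0.137) and under scaling to mitochondrial mRNAs (0.17 and 0.30, adjusted p = 0.640 and 0.414).

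E2F5, the other repressor that works with the pocket proteins, had the fewest reads of the 10 genes, between 0.887 and 3.50 CPM in DMSO wells (median 1.56). It overlaps RBIS on the opposite strand, which had 11.8 CPM, and whether the counting used the strand is not given in the sources used here. With triptolide the wells held 1.597, 0 and 4.30 CPM at 100 nM, 0.129, 0 and 1.04 at 1000 nM, and 0.356, 0.436 and 0.594 at 10000 nM. A count of 0 allows up to 3 counts, which is 36.1 CPM in the shallow well at 100 nM and 0.349 CPM at 1000 nM. The wells at 10000 nM lay below every DMSO well (log2 fold change -1.80 ± 0.29, edgeR, adjusted p = 4.88e-06), and those at 1000 nM were called too (-1.49 ± 0.43, 0.00340). At 100 nM the call of 0.83 ± 0.31 (adjusted p = 0.0255) went to 0.04 without replicate 3, and was -0.81 under scaling to mitochondrial mRNAs. With homoharringtonine only 100 nM was called, at 0.69 ± 0.22 (edgeR, adjusted p = 0.00708), with all 3 wells (3.12, 2.59 and 1.82 CPM) inside the DMSO range but 2 of them above the 2.48 CPM that is highest without DMSO replicate 10, and the call was lost without replicate 1 (0.52).

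E2F6, the repressor that binds no pocket protein, had the largest fall of the 10 genes with triptolide. Its values with homoharringtonine changed when the GC slope of the library entered the fit. DMSO wells held between 23.2 and 47.4 CPM (median 30.0). With triptolide they held 3.27, 0 and 3.75 CPM at 100 nM, 0.772, 0.349 and 0.898 at 1000 nM, and 0.830, 0.835 and 0.831 at 10000 nM. Mean CPM was 2.06% of the DMSO mean at 1000 nM and 2.54% at 10000 nM, with log2 fold changes of -3.25 ± 0.28, -5.47 ± 0.30 and -5.34 ± 0.26 (edgeR, adjusted p = 6.43e-10, 4.57e-14 and 4.04e-15). The 0 at 100 nM belongs to the library of 70767 counts, where it allows up to 36.1 CPM, and without the 3 shallow libraries the value was -3.23. With homoharringtonine the wells held 37.5, 31.6 and 25.1 CPM, then 20.2, 30.5 and 38.2, then 27.9, 27.5 and 32.2, and no dose was called, with log2 fold changes of -0.05, -0.15 and -0.20. With the GC slope, which is how log2 expression in a library depends on the GC content of transcripts, as a covariate, all 3 doses were called, at -0.35, -0.55 and -0.88 (edgeR, adjusted p = 5.95e-06, 5.79e-09 and 3.39e-11). E2F6 is itself among the genes on which the slope was fitted. At 10000 nM the slopes with homoharringtonine (-0.60 to -0.45) lay below every DMSO well (-0.41 or more). Compound and slope cannot be told apart there, and the value of -0.88 goes beyond the slopes seen in DMSO.

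The atypical repressors E2F7 and E2F8 both fell with triptolide. E2F8 wells held 4.29, 0 and 3.19 CPM at 100 nM, 1.42, 1.396 and 1.58 at 1000 nM, and 0.988, 1.31 and 0.989 at 10000 nM, against 12.6 to 16.5 (median 13.5) in DMSO. The 0 is from the library of 70767 counts, each of the other wells lay below every DMSO well, and the log2 fold changes were -1.86 ± 0.16, -3.22 ± 0.14 and -3.69 ± 0.14 (edgeR, adjusted p = 7.82e-10, 9.08e-16 and 2.55e-17). E2F8 also fell with homoharringtonine, where the wells held 11.4, 10.9 and 9.98 CPM, then 10.3, 9.52 and 9.55, then 8.53, 8.92 and 8.49. All 9 wells lay below every DMSO well, with log2 fold changes of -0.34 ± 0.10, -0.49 ± 0.10 and -0.70 ± 0.10 (edgeR, adjusted p = 0.00317, 8.37e-05 and 8.33e-07). E2F7 wells held 37.2, 36.1 and 26.9 CPM at 100 nM triptolide, inside the DMSO range of 17.5 to 54.8 (median 42.6), and that dose was not called (-0.35 ± 0.17). The 17.5 is DMSO replicate 10, and 1 of these wells lay below the 33.8 at which the other 17 DMSO wells begin. Without the 3 shallow wells E2F7 was called at this dose (-0.37, edgeR, adjusted p = 0.0330), as it was with library size only (-0.69, adjusted p = 0.00146). At 1000 nM they held 5.02, 6.40 and 9.01 CPM and at 10000 nM 8.30, 8.13 and 8.35, falls of 2.58 ± 0.20 and 2.38 ± 0.17 on the log2 scale (edgeR, adjusted p = 1.98e-11 and 3.13e-12). The homoharringtonine wells of E2F7 overlapped DMSO at each dose, and the call at 1000 nM (-0.45 ± 0.15, edgeR, adjusted p = 0.0106) was lost without replicate 1 (-0.35).

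RB1, the retinoblastoma gene, was higher with homoharringtonine, and its level moved with a property of the library. DMSO wells held between 16.1 and 56.0 CPM (median 26.1), a spread relative to its level that E2F5 exceeded and no other member did. With homoharringtonine they held 57.2, 47.3 and 32.01 CPM at 100 nM, 31.8, 53.0 and 92.3 at 1000 nM, and 66.4, 57.2 and 85.1 at 10000 nM, and only at 10000 nM did all 3 wells lie above the DMSO wells. The log2 fold changes were 0.68 ± 0.24, 1.04 ± 0.26 and 1.25 ± 0.23 (edgeR, adjusted p = 0.0170, 0.00112 and 3.27e-05). The call at 100 nM was lost without replicate 1 (0.49) or 2 (0.65), and that at 1000 nM without replicate 3 (0.58). With the GC slope as a covariate the values were 0.26, 0.41 and 0.28 and stayed called. At 10000 nM compound and slope cannot be told apart, as for E2F6. With triptolide RB1 wells held 25.1, 24.1 and 41.6 CPM, then 38.7, 45.0 and 73.2, then 46.4, 50.1 and 44.4. The called doses, 1000 nM (0.87 ± 0.24, edgeR, adjusted p = 0.00294) and 10000 nM (0.68 ± 0.23, 0.0117), overlapped DMSO, turned to -1.55 and -2.03 under scaling to mitochondrial mRNAs, and were lost without replicate 3 (0.56) and replicate 2 (0.61).

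TFDP1, the DP partner of the E2Fs, moved in opposite directions with the compounds under TMM. DMSO wells held between 154.2 and 194.2 CPM (median 165.9). The triptolide wells held 382, 337 and 374 CPM at 100 nM, 411, 472 and 440 at 1000 nM, and 419, 456 and 498 at 10000 nM, each above every DMSO well. The log2 fold changes of 1.14 ± 0.08, 1.37 ± 0.07 and 1.38 ± 0.07 (edgeR, adjusted p = 2.71e-11, 1.82e-14 and 6.04e-15) became -0.42, -1.08 and -1.41 under scaling to mitochondrial mRNAs. The homoharringtonine wells held 82.6, 83.4 and 87.4 CPM, then 66.5, 55.3 and 56.4, then 50.2, 50.8 and 48.4, each below every DMSO well. Their log2 fold changes were -0.997 ± 0.09, -1.52 ± 0.10 and -1.80 ± 0.09 (edgeR, adjusted p = 4.42e-10, 1.30e-12 and 4.05e-15), and 29.4% of the DMSO mean remained at 10000 nM. The pseudogene TFDP1P2 had 1.02 CPM in DMSO, and reads shared with it could be split by the estimation.

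At matched doses triptolide was compared with homoharringtonine directly, a test that shares no control wells. Of the 10 genes, 5 were called at 100 nM, 6 at 1000 nM and 9 at 10000 nM, beside 65.5%, 66.8% and 88.4% of all genes tested. TFDP1 was higher with triptolide by 2.20 ± 0.17, 2.88 ± 0.16 and 3.27 ± 0.08 on the log2 scale (edgeR, adjusted p = 5.87e-09, 3.22e-06 and 5.00e-11), and was higher by 0.65, 0.49 and 0.69 under scaling to mitochondrial mRNAs, of which the value at 1000 nM was not called (adjusted p = 0.243). E2F6 was lower with triptolide by log2 differences of -3.12 ± 0.28, -5.35 ± 0.42 and -5.06 ± 0.13, and E2F8 by -1.43 ± 0.28, -2.74 ± 0.27 and -2.90 ± 0.15 (edgeR, the largest of the 6 adjusted p-values was 0.000201). E2F2, low with both compounds, had log2 differences of 0.45 ± 0.21, -0.20 ± 0.27 and -0.12 ± 0.12 between them under TMM, and none was called (edgeR, adjusted p = 0.0705, 0.541 and 0.363). With library size only the difference at 10000 nM was -0.70 and called (edgeR, adjusted p = 0.000283). Under scaling to mitochondrial mRNAs it was -1.20 at 100 nM. That scaling moved the median of all genes by -2.39 at 1000 nM and -2.58 at 10000 nM. An equal level with both compounds is thus not shown. E2F4 was lower with triptolide at 100 nM by -2.18 ± 0.20 (edgeR, adjusted p = 7.65e-08), and E2F3 and E2F7 were lower at 1000 nM by -2.71 ± 0.26 and -2.15 ± 0.30 (edgeR, adjusted p = 3.26e-05 and 0.000274). E2F1 was higher with triptolide at each dose under TMM (0.62 ± 0.17, 1.31 ± 0.20 and 1.51 ± 0.08), although the call at 100 nM was lost without replicate 1 (0.56) or 2 (0.51), and lower under scaling to mitochondrial mRNAs (-0.997, -1.11 and -1.08). RB1 was lower with triptolide at 10000 nM by -0.50 ± 0.12 (edgeR, adjusted p = 0.00317), a difference that was 0.89 with the GC slope as a covariate. The slopes of the compounds did not overlap at that dose, so compound and slope cannot be told apart there.

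The dose trend within each compound was fitted over its 9 wells, per 10-fold step of dose, and not for nilotinib. With triptolide 7 of the 10 genes were called, beside 24.7% of all genes tested. E2F3 fell by 2.12 ± 0.25 per step on the log2 scale, E2F5 by 1.34 ± 0.41, E2F6 by 1.04 ± 0.27, E2F7 by 1.01 ± 0.21, E2F8 by 0.92 ± 0.20 and E2F2 by 0.73 ± 0.15, while E2F4 rose by 0.96 ± 0.26 per step (edgeR, adjusted p between 0.000122 and 0.0301). These changes were not even over dose. In percent of the DMSO mean, E2F5 went from 23.5 at 1000 nM to 27.8 at 10000 nM. Between these doses E2F6 went from 2.06 to 2.54 and E2F7 from 16.6 to 20.2. E2F2 (14.1 to 13.4), E2F3 (10.3 to 7.16) and E2F8 (10.6 to 7.90) went lower. E2F4 was at 28.8 at 100 nM, then 123.9 and 129.3. The E2F4 trend was 0.48 and not called under scaling to mitochondrial mRNAs. Without replicate 1 the calls of E2F2 (-0.68), E2F4 (0.93), E2F5 (-1.50), E2F6 (-1.03) and E2F8 (-0.76) were lost, without replicate 2 that of E2F5 (-1.37), and without replicate 3 those of E2F4 (0.77), E2F6 (-0.93) and E2F8 (-0.94). With homoharringtonine 4 of 10 were called, beside 44% of all genes: E2F3 (-0.63 ± 0.07 per step), E2F2 (-0.43 ± 0.11), TFDP1 (-0.41 ± 0.06) and E2F8 (-0.19 ± 0.06), with edgeR's adjusted p between 7.98e-05 and 0.0308. The E2F8 call was lost without any 1 of the 3 replicates (-0.17, -0.19 and -0.21) and the E2F2 call without replicate 2 (-0.40). E2F1 had no called trend with either compound.

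With MK-2206, E2F2 and E2F8 were lower at the highest dose. E2F2 wells held 44.3, 37.1 and 47.9 CPM and E2F8 wells 9.61, 10.0 and 11.4. All 3 E2F8 wells lay below every DMSO well, and the E2F2 wells lay below every DMSO well except replicate 10. The log2 fold changes were -0.68 ± 0.18 for E2F2 and -0.42 ± 0.10 for E2F8 (edgeR, adjusted p = 0.0329 and 0.0179). The E2F2 call was lost without any 1 of the 3 wells (-0.70, -0.56 and -0.78), and the E2F8 call without replicate 1 or 2 (-0.36 both). At 100 nM and 1000 nM edgeR called 0 members, with 4 and 2 at an unadjusted p under 0.05, and DESeq2 called 0 and 1. No trend with dose was called by edgeR, where 0.028% of all genes were, nor by DESeq2, and 0 members had an unadjusted p under 0.05.

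With pyrazolanthrone, E2F4 and TFDP1 were higher and E2F5 lower at 100 nM, and E2F1 was lower at 10000 nM. At 100 nM E2F4 wells held 118, 132 and 138 CPM, all above the DMSO wells (0.42 ± 0.10, edgeR, adjusted p = 0.0207), and E2F5 wells 0.844, 0.958 and 0.611 CPM, 2 of them below the DMSO wells (-0.92 ± 0.26, 0.0418). TFDP1 wells held 190.4, 199.7 and 206.4 CPM, 2 of them above the DMSO wells (0.26 ± 0.08, edgeR, adjusted p = 0.0480). At 10000 nM E2F1 wells held 54.5, 54.1 and 58.3 CPM, all below the DMSO wells (-0.52 ± 0.13, edgeR, adjusted p = 0.0160). The E2F4 call was lost without replicate 2 (0.40) or 3 (0.36), and the others without any 1 of the 3 wells, with values of -0.95, -1.07 and -0.77 for E2F5, 0.30, 0.26 and 0.22 for TFDP1 and -0.50, -0.49 and -0.57 for E2F1. Under scaling to mitochondrial mRNAs edgeR called 0 of the 30 member tests, with values of 0.64 for E2F4, -0.64 for E2F5 and 0.49 for TFDP1 at 100 nM and -0.93 for E2F1 at 10000 nM (adjusted p between 0.122 and 0.350). At 1000 nM edgeR called 0 members, with 1 at an unadjusted p under 0.05, and DESeq2 called 0. The trends of E2F5 (0.78 ± 0.15 per step), E2F4 (-0.22 ± 0.06) and TFDP1 (-0.24 ± 0.05) were called, beside 18.6% of all genes (edgeR, adjusted p = 0.0164, 0.0317 and 0.0189), and none of the 3 was called with the GC slope as a covariate, or without replicate 2 (0.92, -0.21 and -0.23) or replicate 3 (0.71, -0.19 and -0.23).

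Miglitol gave no call of a member at any dose by edgeR or by DESeq2, with 0, 2 and 3 members at an unadjusted p under 0.05. Mean CPM by dose was 96.4%, 82.8% and 82.6% of the DMSO mean for E2F2 and 93.3%, 86.2% and 77.3% for E2F1. For E2F8 it was 92.1%, 86.2% and 107.2%. Lower E2F1 and E2F2 means were thus not particular to the compounds with calls. The miglitol dose trend had calls for RB1 (0.51 ± 0.12 per step) and E2F6 (0.29 ± 0.07), beside 15.9% of all genes (edgeR, adjusted p = 0.0282 and 0.0307). RB1 wells held 23.8, 18.6 and 18.2 CPM at 100 nM, 30.3, 15.2 and 19.8 at 1000 nM and 39.9, 45.4 and 39.9 at 10000 nM, all inside the DMSO range except 1 of 9. The median GC slope of the library also went from 0.13 to 0.21 and -0.27 over these doses. Neither trend was called with the GC slope as a covariate, at 0.13 and 0.09 per step, or without any 1 of the 3 replicates (RB1 between 0.45 and 0.59, E2F6 between 0.24 and 0.33).

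With nilotinib E2F2 and E2F8 were lower under TMM at 100 nM and 1000 nM. The treated wells of these doses did not enter the choice of the genes, but the DMSO wells they are compared with did. E2F2 wells held 34.2, 54.1 and 48.4 CPM at 100 nM and 27.9, 44.9 and 42.0 at 1000 nM, all below the DMSO wells other than replicate 10. These were log2 fold changes of -0.60 ± 0.19 and -0.86 ± 0.20 (edgeR, adjusted p = 0.0446 and 0.0139). E2F8 wells held 11.5, 9.94 and 9.53 CPM and then 9.23, 9.53 and 11.2, all below every DMSO well (-0.42 ± 0.10 and -0.47 ± 0.10, edgeR, adjusted p = 0.0108 and 0.00529). E2F4 rose at 100 nM (116, 167 and 149 CPM, 0.53 ± 0.11, edgeR, adjusted p = 0.00301), and E2F1 fell at 1000 nM (45.6, 64.2 and 51.2 CPM, -0.54 ± 0.15, 0.0479). At 100 nM the E2F2 call was lost without any 1 of the 3 wells (-0.39, -0.72 and -0.63), and those of E2F4 (0.44 and 0.52) and E2F8 (-0.37 and -0.35) without replicate 2 or 3. At 1000 nM the calls of E2F1 (-0.43), E2F2 (-0.67) and E2F8 (-0.41) were lost without replicate 1, and that of E2F1 also without replicate 3 (-0.52). With the GC slope as a covariate, 10 member tests were called at these doses instead of 6. The share of all genes called in that fit is not given, and nothing is read from this count. Under scaling to mitochondrial mRNAs only E2F4 at 100 nM was called (1.02, edgeR, adjusted p = 0.0322), and E2F2 was at -0.11 and -0.75 and E2F8 at 0.019 and -0.39 at the lower and the higher of these doses.

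At 10000 nM nilotinib, the comparison that chose the genes, E2F2 wells held 22.8, 28.6 and 35.1 CPM, a mean of 42.4% of the DMSO mean and a log2 fold change of -1.25 ± 0.19. Of these, 1 well lay below every DMSO well, and all 3 lay below the 17 DMSO wells without replicate 10. E2F1 wells held 37.6, 43.7 and 48.1 CPM (-0.84 ± 0.14) and E2F8 wells 7.31, 8.27 and 8.43 (-0.77 ± 0.10), all below the DMSO wells. TFDP1 held 132, 137 and 131 CPM (-0.34 ± 0.08), below the DMSO wells as well, and E2F7 held 65.5, 56.3 and 52.6 (0.49 ± 0.13), 2 of them above. E2F3 (-0.03), E2F4 (0.06) and RB1 (0.05) were close to DMSO.

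**Figure D4:**
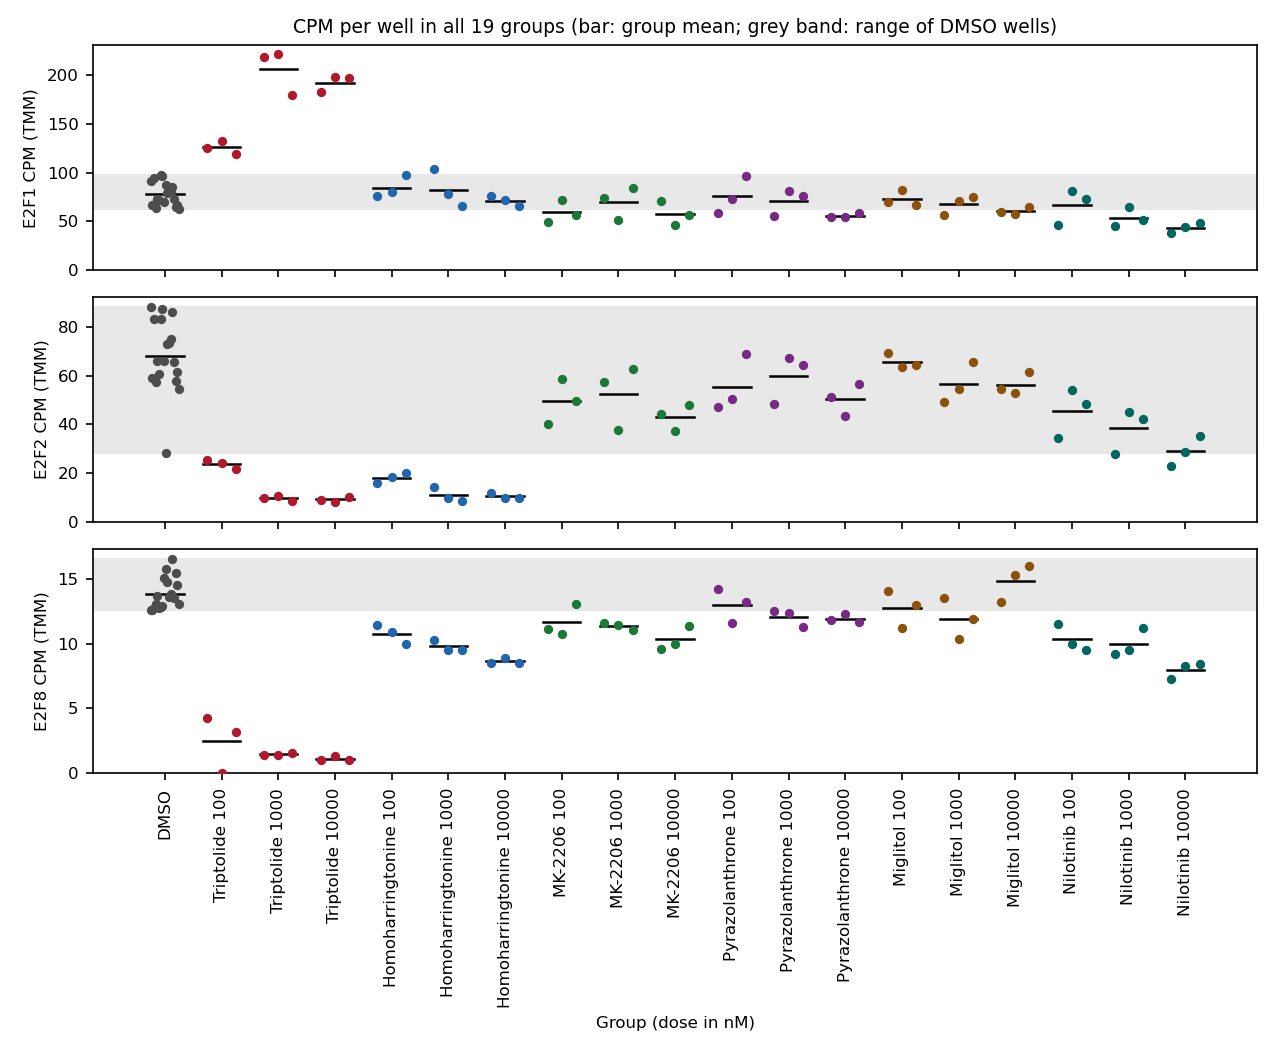
CPM of E2F1, E2F2 and E2F8 in each well of all 19 groups, with a bar at the group mean and a grey band for the range of the 18 DMSO wells. E2F2 is lowest with triptolide and homoharringtonine and has group means of 45.6, 38.3 and 28.8 CPM with nilotinib at the 3 doses; the high E2F1 values with triptolide turn to lower values under scaling to mitochondrial mRNAs.

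The library property that moved with RB1 was the GC slope, which says by how much log2 expression in a library goes up for every 10 percentage points more GC in the transcripts of a gene. Over the 18 DMSO wells it ranged from -0.41 to 0.32, and RB1 (42.3% GC) went with it at Pearson's r = -0.904 and Spearman's rho = -0.889 (permutation p = 1e-05 for both, the smallest that 100000 resamples can give, adjusted p = 5e-05 over 10 genes). E2F6 had r = -0.956 and rho = -0.948 with the same p-values, and E2F1 (61.6% GC) had r = 0.845 and rho = 0.868 (permutation p = 2e-05 both, adjusted p = 6.67e-05). Without the 2 wells farthest from the median slope, r was -0.850, -0.927 and 0.841. Of the other 7 genes, 4 had an adjusted p under 0.05 for r and 7 for rho. RB1, E2F6 and E2F1 are themselves among the genes on which the slope was fitted. A gene of low GC therefore tends to a negative r, and one of high GC to a positive r, by construction. The p-values are thus no independent evidence of an association. The slope is computed from the same libraries, so compound effects on genes of high or low GC can enter it. It lay between -0.60 and -0.45 with 10000 nM homoharringtonine, below every DMSO well, and its part in the results was not tested beyond the fits with it as a covariate.

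**Figure D5:**
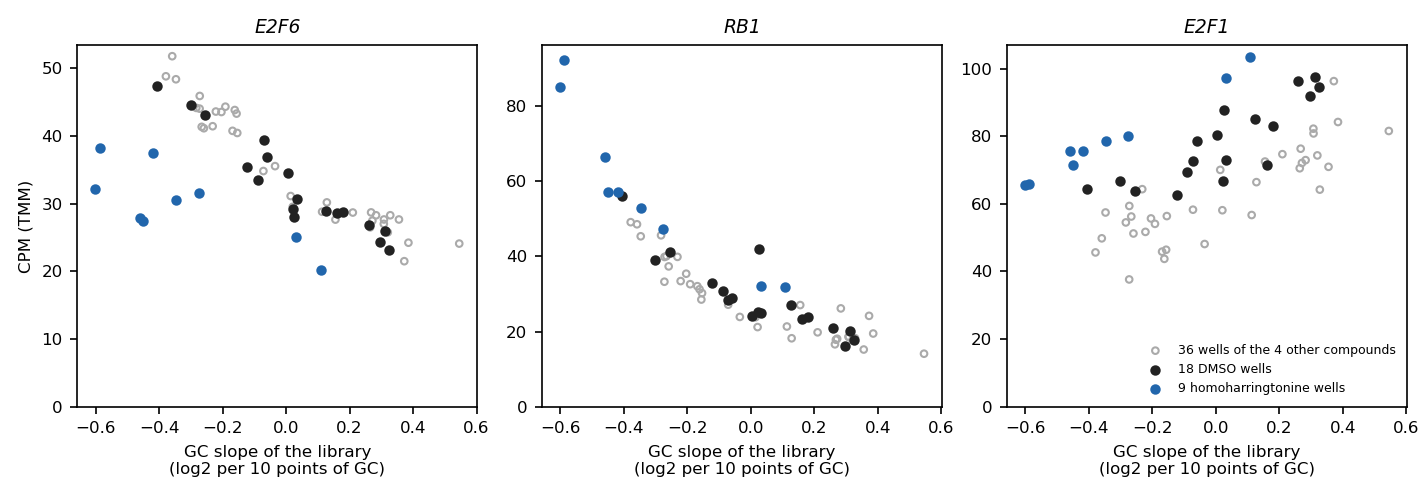
CPM of E2F6, RB1 and E2F1 against the GC slope of the library (log2 per 10 percentage points of GC), 1 point per well, for 18 DMSO wells (black), 9 homoharringtonine wells (blue) and 36 wells of the 4 other compounds without triptolide (open grey). In DMSO wells E2F6 and RB1 are high where the slope is negative (r = -0.956 and -0.904) and E2F1 is high where it is positive (r = 0.845).

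With the GC slope as a covariate, homoharringtonine had 29 calls over the 10 genes and 3 doses instead of 18. The share of all genes called in that fit is not given, so nothing about these genes is read from the count. At 10000 nM compound and slope cannot be told apart. E2F2, E2F8 and TFDP1 kept their direction and calls at each dose, with moves of up to 0.46, 0.11 and 0.15 on the log2 scale. E2F1 went from -0.17 to 0.32 and E2F5 from 0.12 to -0.54 at 10000 nM, both called with the covariate and not without it. E2F6 went from -0.20 to -0.88 at that dose and was called with the covariate only. With triptolide the values of all 10 genes at the 3 doses moved by at most 0.44.

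Genes around the E2F axis were described with 4 lists. The targets of E2F in G1 and S phase, such as genes of the replication helicase and of nucleotide synthesis, had 9 of 31 higher and 19 lower at 1000 nM triptolide, with a median log2 fold change of -1.15 beside -0.21 over all genes tested, of which 28.8% were called higher and 38.6% lower at this dose. CDC25A, a phosphatase that activates CDK2 (-5.10 ± 0.16), and FBXO5, an inhibitor of the anaphase-promoting complex (-4.78 ± 0.55), fell, while TYMS, the enzyme of thymidylate synthesis (1.54 ± 0.09), was higher under TMM. With 1000 nM homoharringtonine 8 of 31 rose and 12 fell (median -0.16 beside -0.01), where 35.0% of all genes were called higher and 33.4% lower. At 100 nM homoharringtonine 11 rose and 8 fell (median 0.01 beside -0.03, with 31.1% and 32.3% of all genes called higher and lower). EZH2, a histone methyltransferase (1.18 ± 0.15), and FBXO5 (1.09 ± 0.31) rose, and UHRF1, a factor in the upkeep of DNA methylation (-2.11 ± 0.19), and the helicase subunit MCM3 (-1.64 ± 0.12) fell. With 10000 nM MK-2206 0 rose and 4 fell (median -0.27 beside -0.02, with 2.21% and 0.948% of all genes called higher and lower), among them CDC25A (-0.46 ± 0.08) and CCNE1, cyclin E1 (-0.41 ± 0.07). The median at 10000 nM nilotinib was -0.44 beside 0.01, and no test is given there.

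Of the G1 cyclins, kinases and inhibitors upstream of RB1, 12 of 14 were tested. At 1000 nM triptolide 4 were higher and 4 lower (beside 28.8% and 38.6% of all genes), with CDK4 (1.21 ± 0.07) and CCND1, cyclin D1 (1.06 ± 0.08), higher under TMM, and the CDK inhibitor genes CDKN1B (-5.56 ± 0.28) and CDKN1C (-1.13 ± 0.35) lower. At 1000 nM homoharringtonine 4 rose and 8 fell (beside 35.0% and 33.4% of all genes), a median of -0.78 beside -0.01 over all genes. CDKN1A, which encodes p21, rose by 1.94 ± 0.11 and CDKN2D by 1.25 ± 0.15, while SKP2, which targets p27 for degradation, fell by 4.73 ± 0.17 and CDKN2C by 2.66 ± 0.21. At 10000 nM MK-2206 the only call was CCND2, cyclin D2 (-0.46 ± 0.07), and the list median was -0.13.

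The 9 pocket proteins, partners and MuvB subunits had 4 higher and 5 lower at 1000 nM triptolide (median -1.08 beside -0.21, with 28.8% and 38.6% of all genes called higher and lower). MYBL2 (1.16 ± 0.11) and the RB1 relative RBL2 (0.87 ± 0.13) were higher under TMM, and the MuvB subunits LIN37 (-3.00 ± 0.31) and LIN54 (-2.64 ± 0.22) were lower. With 1000 nM homoharringtonine 4 rose and 3 fell (median 0.13, beside 35.0% and 33.4% of all genes), and LIN37 (2.67 ± 0.18) and LIN9 (1.69 ± 0.26) rose, while MYBL2 (-1.10 ± 0.15) and RBBP4 (-1.09 ± 0.21) fell. LIN37 and MYBL2 thus had opposite signs with the compounds under TMM. The E2F6 complex had 0 of 8 higher and 7 lower at 100 nM triptolide (median -1.002 beside -0.16, with 24.5% and 32.3% of all genes called higher and lower). At 1000 nM 3 were higher and 4 lower (median -0.19 beside -0.21, with 28.8% and 38.6% of all genes), with MGA (-3.84 ± 0.36) and L3MBTL2 (-1.83 ± 0.13) lower and CBX3 (0.74 ± 0.20) and EHMT2 (0.44 ± 0.15) higher under TMM. With 1000 nM homoharringtonine 2 of these 8 rose, PCGF6 (1.08 ± 0.19) and RNF2 (0.55 ± 0.23), and 5 fell, among them EHMT1 (-0.99 ± 0.16) and CBX3 (-0.68 ± 0.24), beside 35.0% and 33.4% of all genes. At 10000 nM MK-2206 the medians of these latter lists were -0.11 and -0.08 beside -0.02 over all genes. All values of named genes in these lists are log2 fold changes with edgeR's adjusted p under 0.05, and the largest adjusted p of a named gene was 0.0422.

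As a description of shape, each member was matched to the 10711 other protein-coding genes with a mean of at least 5 CPM by Pearson's r over the 19 group means of log2(CPM + 1), which share wells, depth and GC slope. The closest were ZNF322, UBQLN2 and KCTD6 for E2F6 (r between 0.994 and 0.997), RTL10, CDC25A and DCLRE1B for E2F3 (0.986 to 0.994), and SCARB1, PTPRF and KDELR1 for TFDP1 (0.990 to 0.991). FGFRL1 and MAGED1 were among the closest to E2F1 (0.974 for both). The closest were, for E2F2, HUNK, CCDC8 and NUMBL (0.966 to 0.972), and for E2F4 DDA1, TSEN34 and MRPL43 (0.967 to 0.980). For E2F7 they were ZBTB24, CASP8 and BAG5 (0.976 to 0.980), for E2F8 EFNA4, PABIR1 and GAREM1 (0.979 to 0.981), and for RB1 YIPF6, MICU2 and CTNNAL1 (0.961 to 0.979). E2F5, with the fewest reads, had lower values (SENP5, KIF21A and PPM1B, 0.915 to 0.935). Of the 31 E2F targets listed, CDC25A is the 1 that appears here, beside E2F3.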

How the data were processed

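Libraries were poly(A)-selected and stranded, sequenced on an Illumina instrument and mapped to GRCh38. The deposited files hold expected counts and TPM per gene, which the authors made with RSEM, and whose version and annotation are not given in the sources used here. HTSeq and DESeq2 are also named in the submitters' processing notes. Expected counts were rounded and tested with edgeR 4.0.16 (R 4.3.3; TMM, filterByExpr with a minimum count of 10, quasi-likelihood), each compound and dose against 18 DMSO wells, each dose trend over 9 wells and triptolide against homoharringtonine over 6. CPM are counts scaled to library size after TMM. A gene was called at a Benjamini-Hochberg adjusted p under 0.05 over all genes tested. TPM, the estimate per transcript length that the authors deposited, served for levels between genes. Gene symbols came from GENCODE 44 (56104 of 60371 identifiers).

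Doses are those of the labels; the study's methods text gives another middle dose. The 10 genes, the lists and the tests were chosen with earlier results of these data known. From each list at most 2 called genes were named in each direction, by size of fold change, at 1000 nM triptolide, 1000 nM homoharringtonine and 10000 nM MK-2206. Of the genes that the naming rules gave, 2 are not reported here. The scripts were tested on simulated counts. Counts carry no molecular identifiers, so limits from counts of 0 cover counting error only. No pair of wells agreed within sampling noise (207 pairs within groups, lowest chi-square per degree of freedom 1.36). Alternatives were DESeq2 1.42.0, other scalings and filters, 1 fit of all wells, a GC slope covariate, a replicate block, and fits without single wells or shallow libraries.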

Additional observations from a re-analysis of the deposited data

Results flagged for a closer look

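E2F4 with triptolide stood out because all 3 wells at 100 nM, 1 of them with 3 counts only, lay below the DMSO wells while the mean at the higher doses lay above the DMSO mean. Its log2 fold changes were -1.97 at 100 nM, 0.30 at 1000 nM and 0.32 at 10000 nM, and the trend over dose was called (0.96 per 10-fold step, edgeR, adjusted p = 0.0177). The values at the higher doses turned to -0.15 and -0.22 with library size only, and to -2.16 and -2.48 under scaling to mitochondrial mRNAs. The trend call was lost without replicate 1 (0.93) or 3 (0.77). At the same 100 nM dose E2F4 was lower with triptolide than with homoharringtonine, by a log2 difference of -2.18 (edgeR, adjusted p = 7.65e-08).

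TFDP1 was flagged because, under TMM, every triptolide well lay above and every homoharringtonine well below the DMSO wells at each dose. The tested log2 differences between the compounds were 2.20, 2.88 and 3.27 at 100 nM, 1000 nM and 10000 nM. Under scaling to mitochondrial mRNAs these differences were smaller, and the value at 1000 nM was not called. Triptolide against DMSO was then at -0.42, -1.08 and -1.41. Groups of 3 wells and the group of 18 were not searched for outlying wells.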

How the results depend on the processing

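A test counted as kept if a called gene stayed called in the same direction, or if a gene not called stayed not called. For genes not called in either fit, a change of direction was not counted. Of 250 tests of a member, 237 were kept with DESeq2, 247 with RLE size factors, 236 with no filter, 245 without libraries under 10 mil, 233 with library size only, 209 with the GC slope covariate and 189 with mitochondrial mRNA scaling. Without replicate 1, 2 and 3 the numbers were 222, 227 and 220, the last of 249. In 1 fit of all 72 wells 194 of 200 were kept, and with at least 10 counts in every well 181 of 190.

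Summed over doses, edgeR called 28 member tests with triptolide, 18 with homoharringtonine, 2 with MK-2206, 4 with pyrazolanthrone, 0 with miglitol and 6 with nilotinib at its lower doses. The count for triptolide was 15 with at least 10 counts in every well, where fewer tests were left. The GC slope covariate gave 29 for homoharringtonine, 6 for MK-2206, 7 for pyrazolanthrone, 1 for miglitol and 10 for nilotinib, and in dose trends 7 for homoharringtonine, 2 for MK-2206, 0 for pyrazolanthrone and 0 for miglitol. Mitochondrial scaling gave 0 for MK-2206, 0 for pyrazolanthrone and 1 for nilotinib, and in dose trends 2 for homoharringtonine and 7 for miglitol. DESeq2 gave 7 for pyrazolanthrone and 5 for its trend, no filter gave 1 for pyrazolanthrone, and at least 10 counts in every well gave 1 for MK-2206, 2 for pyrazolanthrone and 0 for the triptolide trend. Leaving out 1 replicate gave 0 to 1 calls for MK-2206, 0 to 1 for pyrazolanthrone and 2 to 3 for nilotinib. In dose trends it gave 2 to 6 for triptolide, 2 to 3 for homoharringtonine, 0 to 5 for pyrazolanthrone and 0 to 0 for miglitol. Shares of all genes called in the alternative fits are not given, so these counts are no result about the members. The cause was not tested.

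Treated wells did not on average deviate together with same-numbered DMSO wells (mean r = -0.066 over 52 pairs, against 0.021 over 104 pairs of different numbers). Only DMSO replicates 1 to 3 entered. The labels tie no DMSO number to a treated number, so these values cannot decide whether wells share a plate. Single pairs of the same number ranged from -0.87 to 0.85. Treated wells were not compared with each other, so whether they share a plate or batch was not tested. A fit with a replicate block gave 5 calls for miglitol, 0 for nilotinib and 5 for the pyrazolanthrone trend, and kept 211 of 250 tests. In comparisons with DMSO this fit held only DMSO replicates 1 to 3 of the 18. Effects of the block and of the fewer control wells cannot be told apart in those counts.

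Turns of direction are listed only for tests called in the first fit or in the alternative. Direction turned under mitochondrial scaling for triptolide against DMSO in E2F1 (-0.93, -1.07 and -1.56 by dose), RB1 (-1.39, -1.55 and -2.03), TFDP1 (-0.42, -1.08 and -1.41), E2F3 (-1.31) and E2F5 (-0.81) at 100 nM, and E2F4 at 1000 nM (-2.16) and 10000 nM (-2.48). It also turned for TFDP1 over triptolide dose (-0.48), E2F8 with 100 nM nilotinib (0.019), and E2F3 (-0.40), E2F6 (-0.13), E2F7 (-0.28) and E2F8 (-0.34) over miglitol dose. Against homoharringtonine, triptolide turned for E2F1 (-0.997, -1.11 and -1.08 by dose), for E2F2 (-1.20), E2F3 (-1.40) and E2F5 (-1.47) at 100 nM, and for E2F4 at 10000 nM (-2.31). Library size alone turned E2F4 with triptolide at 1000 nM (-0.15) and 10000 nM (-0.22), and against homoharringtonine at 10000 nM (-0.31). At least 10 counts in every well turned E2F1 at 100 nM triptolide (-0.0048) and against homoharringtonine (-0.19). The GC slope covariate turned E2F1 (0.32) and E2F5 (-0.54) with 10000 nM homoharringtonine, E2F6 with 100 nM nilotinib (0.19), RB1 between the compounds at 1000 nM (0.88) and 10000 nM (0.89), and E2F4 between them at 10000 nM (-0.33). E2F5 between them at 100 nM ranged from -1.06 to 1.04 when single replicates were left out. The cause was not tested. Depth limits each gene in the library of 70767 counts, where E2F5, E2F6 and E2F8 had 0 counts, E2F3 1, E2F2 2 and E2F4 3.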
